A study of Mus musculus with 9 samples.

Results

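The mouse genome holds 9 Pax genes, Pax1 to Pax9, and all 9 were examined here for TWIST1 binding, out of 21887 protein-coding genes on chromosomes 1 to 19, X and Y. They were taken by name. A peak was counted for a Pax gene when its summit lay inside the gene body or, outside all genes, when that gene was the nearest within 100 kb. Chromatin immunoprecipitation followed by sequencing (ChIP-seq) with an antibody against TWIST1 had been made from mouse C57BL/6 embryonic stem cells (A2loxcre line) differentiated for 3 days as embryoid bodies. The overexpressing cells (Twist1-OE, OE below) were Twist1-/- and carried a doxycycline-inducible Flag-Twist1, and the control cells (Twist1-KO, KO below) were Twist1-/- without the inducible cassette. Both had 16 h of doxycycline. The design text also speaks of neurogenic differentiation, and peak lists hold no expression values by which the identity of the cells could be checked. All occupancy in OE cells is thus that of an induced, tagged protein in a null background and not of TWIST1 at its own level, and how many clones the lines stand for is not given in the sources used here. Peak lists of 4 OE ChIP libraries, numbered 1 to 4, of 2 KO ChIP libraries, numbered 2 and 3, and of 1 KO input were used. The 2 inputs from OE cells were not analysed here.

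Pax genes encode transcription factors with a paired domain, a DNA-binding domain named after the Drosophila gene paired. They fall into 4 groups of paralogues: Pax1 with Pax9, Pax2 with Pax5 and Pax8, Pax3 with Pax7, and Pax4 with Pax6. They set up regional identity in the neural tube, neural crest, somites, eye, ear, kidney and several glands, and many work with EYA and DACH cofactors and homeobox proteins of the sine oculis family. TWIST1 is a basic helix-loop-helix (bHLH) factor of mesoderm and neural crest that binds the E-box, CANNTG, as a dimer.

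The deposited lists held 14160 to 106821 peaks in the OE libraries, 104 and 71 peaks in the KO ChIP lists 2 and 3 and 1774 peaks in the input list. No read totals came with the lists. The caller's fold enrichment and p-value fix the number of fragments at a summit and the local background, and the commonest background was 1.00 and 1.20 fragments in OE libraries 1 and 4 and 5.38 and 5.29 in OE libraries 2 and 3. For KO libraries 2 and 3 it came to 4.73 and 5.09, and for the KO input to 6.46. OE libraries 1 and 4, and 2 and 3, are therefore sets defined by background here, not groups of the study.

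Pax genes differed in how reproducibly TWIST1 was found at them. A region was called reproducible when peaks of all 4 OE libraries merged into it and it was free of any peak from KO cells, ChIP or input. Of the 9 Pax genes 5 had such a region: Pax2 had 5, Pax7 had 3, Pax3 and Pax5 had 2 each and Pax1 had 1. Pax4, Pax6, Pax8 and Pax9 had none. Among all protein-coding genes 30.3% had at least 1 reproducible region, 8.44% at least 2, 2.87% at least 3 and 0.521% at least 5. The territory of a gene, the stretch whose positions would be given to it, had a median of 194 kb for the Pax genes and 45.8 kb for all genes. Pax1, Pax2, Pax3, Pax5 and Pax7 all lay in the quintile of widest territories, in which 51.4% of genes had a region. Pax6 and Pax8 lay in the next quintile, where the share was 38.8%. Pax9 lay in the middle quintile (26.5%) and Pax4 in the one below it (19.4%). The count of 5 of 9 is thus to be read against the shares for wide genes. The 13 regions made 9.03 per Mb of Pax territory, and the value over the summed territories of all protein-coding genes was 4.97 per Mb. At that all-gene density 1.08 regions would fall in the territory of Pax2, which held 5, and 0.965 in that of Pax7, which held 3.

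**Figure D1:**
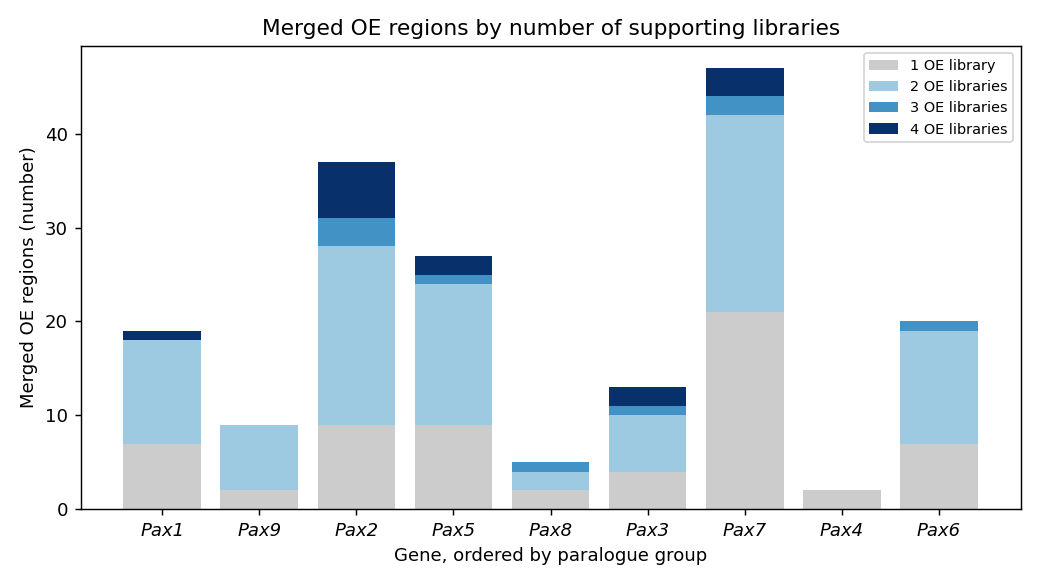
Number of merged OE regions at each Pax gene (y axis), split by how many OE libraries supported them (shades, light for 1 library to dark for 4), with genes ordered by paralogue group on the x axis. Regions of 4 libraries include 1 at Pax2 that overlapped a KO input peak, so that Pax2 shows 6 of them. Most regions at every gene came from 1 or 2 libraries.

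The start sites of the Pax genes are shown first, as the places where sequence could be read. RefSeq (GRCm38.p6, whose main chromosomes share their coordinates with mm10) gave 10 promoter windows for 7 of the 9 genes, each from 250 bases before to 50 bases after a transcription start site. Pax3 and Pax4 were not among them. The windows printed here are the pair at Pax2 with a peak in every OE library, and those of Pax7 and Pax9, which had peaks in OE libraries 2 and 3 alone. Each reads 5′ to 3′ on the strand of the gene, and capitals mark every match to CANNTG, a pattern that is the same on both strands.
Pax2 at its first start site, chr19:44746351-44746650, plus strand: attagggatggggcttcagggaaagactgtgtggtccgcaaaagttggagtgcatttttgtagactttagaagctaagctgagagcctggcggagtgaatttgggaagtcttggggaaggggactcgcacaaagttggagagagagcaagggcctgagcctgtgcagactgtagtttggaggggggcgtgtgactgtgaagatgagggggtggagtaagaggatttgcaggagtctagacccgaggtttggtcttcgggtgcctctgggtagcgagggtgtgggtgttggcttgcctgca
Pax2 at the third start site, chr19:44756656-44756955, plus strand: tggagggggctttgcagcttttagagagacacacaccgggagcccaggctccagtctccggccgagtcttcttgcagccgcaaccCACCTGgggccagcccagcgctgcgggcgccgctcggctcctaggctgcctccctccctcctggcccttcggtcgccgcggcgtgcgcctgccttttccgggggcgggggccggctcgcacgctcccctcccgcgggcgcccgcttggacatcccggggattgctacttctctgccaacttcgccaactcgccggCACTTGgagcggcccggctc
Pax7, chr4:139832919-139833218, minus strand: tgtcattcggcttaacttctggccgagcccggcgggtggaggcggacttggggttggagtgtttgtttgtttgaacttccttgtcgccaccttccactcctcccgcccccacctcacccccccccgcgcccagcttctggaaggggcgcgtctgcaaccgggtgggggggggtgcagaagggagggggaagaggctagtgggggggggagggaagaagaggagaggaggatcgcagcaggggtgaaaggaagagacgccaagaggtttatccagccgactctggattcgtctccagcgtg
Pax9, chr12:56695221-56695520, plus strand: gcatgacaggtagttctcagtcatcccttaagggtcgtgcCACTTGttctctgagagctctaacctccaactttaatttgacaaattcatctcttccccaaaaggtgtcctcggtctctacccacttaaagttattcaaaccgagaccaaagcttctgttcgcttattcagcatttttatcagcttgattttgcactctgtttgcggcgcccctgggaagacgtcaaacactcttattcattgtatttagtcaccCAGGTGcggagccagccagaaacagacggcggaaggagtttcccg

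An E-box was present in 6 of the 10 Pax windows, and in 69.0% of the 21263 windows of protein-coding genes. The first Pax2 window and the Pax7 window had none, and the third Pax2 window and the Pax9 window had 2 each. The E-box CATATG, or CAGATG in either orientation, was in 0 of the 10 Pax windows and in 17.2% of all windows. The peaks reach beyond these windows, and these matches describe the printed letters only.

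At the first start site of Pax2, a gene of the midbrain-hindbrain boundary, optic stalk, ear and kidney, a peak of each OE library overlapped the window and none of any KO list, ChIP or input. Such an overlap with a single KO ChIP library was seen at 0.0047% of all promoter windows for KO library 2 and 0.0% for KO library 3, and with the KO input at 2.1%. A reproducible region overlapped 16.4% of all promoter windows, and 12.7% had a peak of each OE library in the window itself. The folds were 11.5, 3.29, 3.02 and 9.99 in OE libraries 1 to 4, on summit pileups of 22, 20, 18 and 21 fragments. The summits of libraries 1 and 4 lay 96 and 98 bp after the start site, that of library 2 lay 48 bp after it, and that of library 3 lay 212 bp before it. The peak stood near the middle of the lists of libraries 1 and 4 (60.5 and 51.7 as a percentile rank of fold within the library's own list) and near the bottom of those of libraries 2 and 3 (10.95 and 4.56). The lists differ in length and in the weakest fold they hold, so a percentile describes a peak within its own list and a gap between libraries shows no change in binding.

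A peak of each OE library also overlapped the window at the third start site of Pax2, with folds of 8.48, 6.58, 5.09 and 8.17. The summits of OE libraries 1, 2 and 4 lay inside this window. That of OE library 3 lay outside it, 321 bp after the second start site, and the summits were spread over 802 bp. The window of the second start site was overlapped by these same peaks of OE libraries 2 and 3 alone. The peaks of the OE libraries merged into a region of 1970 bp. It was not counted as reproducible, because a KO input peak of fold 4.16 (44756413 to 44756619) overlapped it just upstream of the third window. The input peak did not reach that window itself. It lay inside the peaks of OE libraries 2 and 3 and overlapped that of OE library 4, but not that of OE library 1. The KO ChIP libraries listed no peak in the region. The part of the input signal in the OE peaks was not tested. With this region there would be 14 regions at Pax genes in place of 13.

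Pax7, a gene of the dorsal neural tube, neural crest and muscle satellite cells, had broad peaks over its start site in OE library 2 (2284 bp, fold 6.11) and OE library 3 (2584 bp, fold 8.90). Libraries 1 and 4 and the controls listed none there. Pax9, a gene of the sclerotome, pharyngeal pouches and tooth germs, likewise had peaks over its start site in OE libraries 2 and 3, with folds of 9.25 and 7.95. The summits lay 40 bp after and 1 bp before the start site. The start site of Pax5 was likewise under peaks of OE libraries 2 and 3 alone (2.98 and 3.81). At the first start site of Pax6, OE library 2 had a peak of fold 4.07 with its summit 169 bp upstream. The peak of OE library 3 that covered it was 3819 bp long with its summit 1272 bp upstream (fold 9.06), where OE library 2 had a separate peak of fold 8.15. Pax8 had a weak peak over its start site in OE library 2 alone (3.76). The second start site of Pax6 and that of Pax1 were under no peak. Of all promoter windows, 21.7%, 49.5%, 51.3% and 17.5% were overlapped by a peak in OE libraries 1 to 4, so libraries 2 and 3 covered more start sites in general.

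Peaks at the Pax genes were found in OE cells and in neither KO library. Among all genes only 0.210% and 0.0959% had a peak in KO libraries 2 and 3. Across the family there were 25, 147, 148 and 19 peaks in OE libraries 1 to 4, 0 in both KO libraries and 1 in the KO input. Pax peaks per Mb of territory were 1.65, 2.02, 2.45 and 1.94 times the value over all genes. In 6 of the 9 genes (Pax1, Pax2, Pax3, Pax5, Pax6 and Pax7) each OE library had more peaks than each KO library. With 0 KO peaks, this means that every OE library had a peak at the gene. Among all genes 34.9% did so, a share not split by territory, while all of these Pax genes but Pax6 lay in the widest quintile. In 0 of the 9 was every OE library below every KO library, as 0 KO peaks require, against 0.00457% of all genes. On the scale of log2(peaks + 1), the mean OE minus KO difference was 4.10 at Pax2, 3.75 at Pax7, 3.45 at Pax5, 2.77 at Pax3, 2.64 at Pax1 and 2.58 at Pax6. It was 1.62 at Pax9, 1.40 at Pax8 and 0.40 at Pax4, and its median over all genes was 1.04. That median was not split by territory either, and the median territory was 194 kb for Pax genes and 45.8 kb for all genes. Pax2, Pax3 and Pax5 gave the smallest p that the two-sided exact permutation test over the 15 ways to choose 4 of the 6 ChIP libraries allows, p = 0.0667 (0.351 after Benjamini-Hochberg adjustment over all 21887 genes). Of all genes 4160 had this same p. No gene can pass 0.05 in this design, and none of the 21887 had an unadjusted p under 0.05. For Pax1, Pax6 and Pax7 the exact permutation p was 0.133, since 1 other choice gave a difference as large. These p-values rest on the spread between libraries alone.

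**Figure D2:**
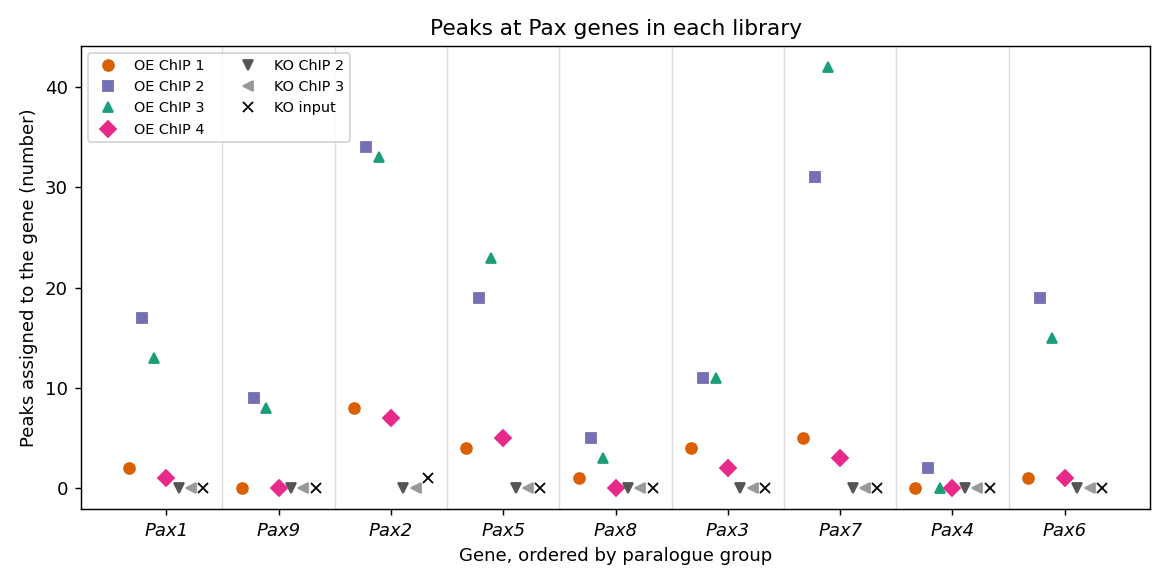
Number of peaks assigned to each Pax gene (y axis) in each library, with genes ordered by paralogue group on the x axis and a symbol per library, OE before KO and input. OE libraries 2 and 3 stand above OE libraries 1 and 4 at every gene but Pax4, and the KO libraries are at 0 throughout.

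The absence from the KO lists has a limit. For each KO library the weakest p-value listed was turned into a fold at the commonest background. This level was 3.66 for library 2 and 3.61 for library 3. The lowest −log10 q listed there was 2.73 and 2.30, beside 2.01 and 2.03 in OE libraries 2 and 3. The true cutoff of the KO lists may therefore lie lower. Of the 13 reproducible Pax regions 10 exceeded both levels in OE libraries 2 and 3, whose background was like that of the KO libraries. The Pax1 region (2.66 and 3.18), the first start site of Pax2 (3.29 and 3.02) and the weakest Pax7 region (3.45 and 4.45) did not exceed them in both. At these 3 regions enrichment as weak as in OE library 2 lay below both levels and may have gone unlisted in the KO libraries.

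Pax3, which patterns the dorsal neural tube, neural crest and migrating muscle precursors, held the strongest region of the family. The gene spans 78101267 to 78197136 on chromosome 1 (mm10, as for all positions given). The region lay inside it (78180920 to 78182594, 1675 bp). Its folds were 57.4, 111, 110 and 30.0 in OE libraries 1 to 4 (mean 76.9 ± 40.0, SD, n = 4), and the 4 summits lay within 25 bp of each other. By mean percentile of fold (97.0) it ranked 550th among the 10375 reproducible regions. A weaker region also lay inside the gene (78189115 to 78190345), with folds of 21.5, 8.93, 6.99 and 22.7. Here libraries 1 and 4 had summits at 78189654 and 78189687 and libraries 2 and 3 had theirs at 78190138, so the sets of libraries peaked at places 484 bp apart at most. Pax3 had 4, 11, 11 and 2 peaks in OE libraries 1 to 4 and 0 in each KO library. Of these 4, 9, 8 and 2 lay inside the gene. Its lower neighbour Epha4 had no reproducible region. On the other side a region inside Gm2102, 20163 bp from Pax3, had folds of 25.0, 3.76, 4.45 and 8.63.

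Pax7 (chromosome 4, 139737059 to 139833530, minus strand) had 5, 31, 42 and 3 peaks in OE libraries 1 to 4, the highest count of any member in OE library 3, and 0 in each KO library. Its strongest region lay 25925 bp upstream of the start site (139858477 to 139859533). The folds there were 17.0, 45.9, 39.7 and 10.9 (mean 28.4 ± 17.1, SD, n = 4), with all summits within 17 bp. A second region lay inside the gene, 11392 bp after the start site (139821162 to 139822059), with folds of 5.99, 3.45, 4.45 and 8.17. The other lay beyond the far end of the gene, 33367 bp away (139703204 to 139703918), with folds of 5.49, 8.02, 7.10 and 4.54. Neither exceeded a fold of 8.17 in any library. A much stronger region lay between Pax7 and the sweet taste receptor gene Tas1r2 (139687350 to 139690172), with folds of 275, 570, 573 and 174 and a mean percentile of 99.9. It lay 48112 bp from Pax7 and 18667 bp from Tas1r2, so the nearest-gene rule gave it to Tas1r2 and it is in none of the Pax counts.

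Pax2 (chromosome 19, 44746601 to 44838269, plus strand) had the most reproducible regions of the family. It had 8, 34, 33 and 7 peaks in OE libraries 1 to 4 (mean 20.5 ± 15.0, SD, n = 4) and 0 in each KO library. The 3 upstream regions lay 62331, 29637 and 21925 bp before the first start site. The region at 29637 bp (44716292 to 44717822) had folds of 10.5, 56.9, 54.7 and 13.2. The one at 21925 bp (44723095 to 44725010) had 23.7, 29.8, 22.1 and 15.8, the most even of the stronger regions, with summits within 52 bp. The farthest (44683452 to 44684705) had 12.5, 4.86, 6.20 and 12.3. No RefSeq gene of any kind covered the summits of these 3 regions. The fourth region was the first start site described above. The fifth lay inside the gene 1594 bp from its far end (44835282 to 44837015), with folds of 7.99, 6.90, 7.47 and 8.17. The folds of this last region were alike (7.63 ± 0.573, SD, n = 4), but its summits were spread over 1190 bp, so the libraries did not share a single point there. Farther upstream, regions 90611 and 101446 bp from Pax2 had mean folds of 27.2 and 24.8 and were nearer to Hif1an, whose product hydroxylates HIF1A.

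**Figure D3:**
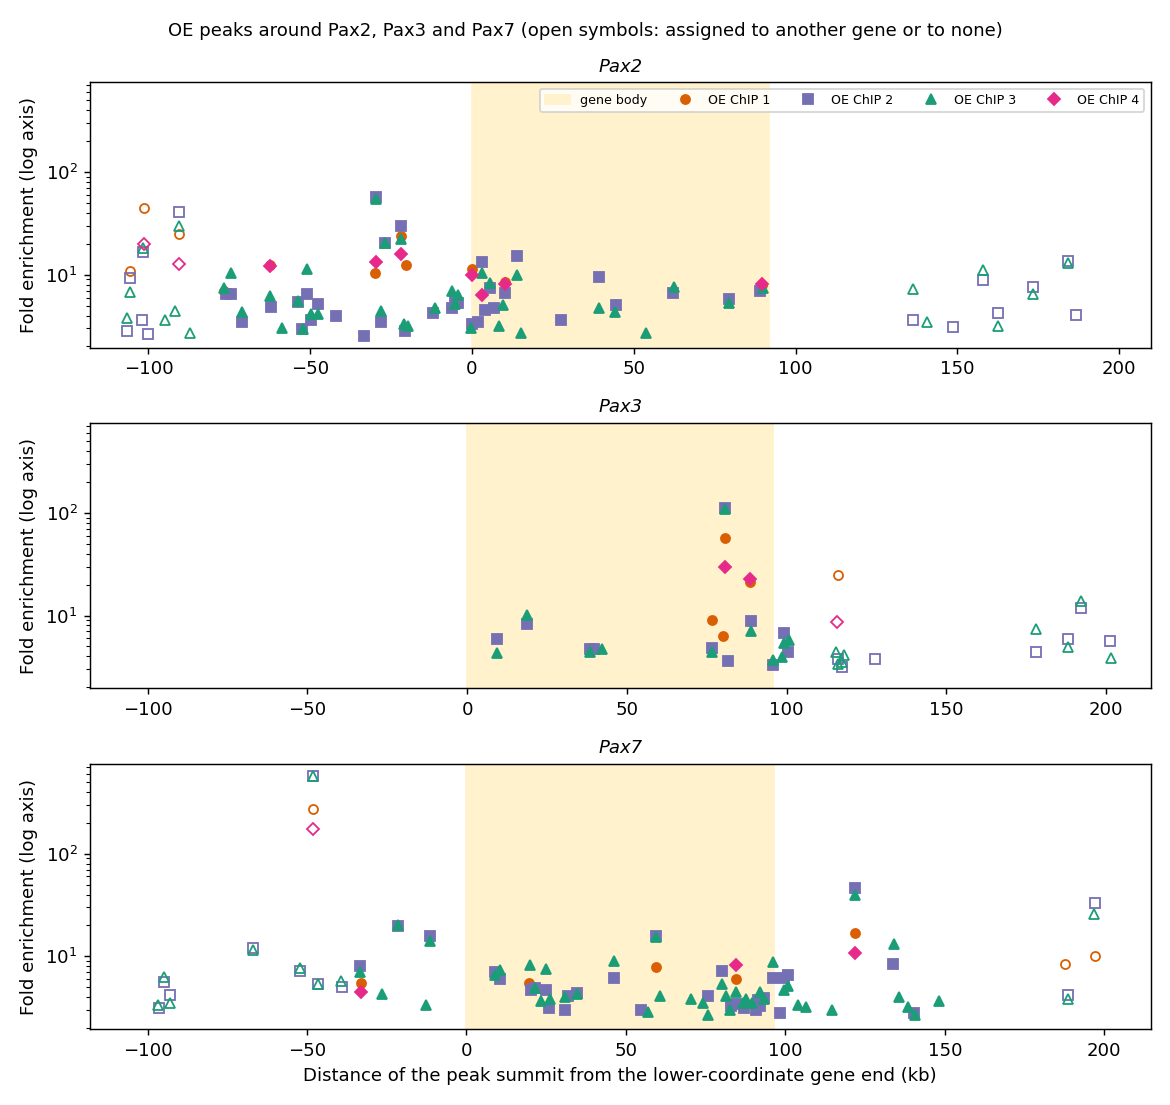
Fold enrichment (y axis, log scale) of every OE peak around Pax2, Pax3 and Pax7 against the distance of its summit from the lower-coordinate end of the gene in kb (x axis), with the gene body shaded and a symbol per OE library. Open symbols are peaks given to another gene or to none, among them the Tas1r2 region with folds of 174 to 573 about 48 kb below Pax7. The KO libraries had no peak at these genes.

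Pax5, which directs B-cell identity and acts at the midbrain-hindbrain boundary, is the longest of the Pax genes at 185947 bp (chromosome 4, 44524748 to 44710694, minus strand). It had 4, 19, 23 and 5 peaks in OE libraries 1 to 4 and 0 in each KO library. Of these, 4, 9, 13 and 5 lay inside the gene, so that every peak of libraries 1 and 4 did. Its stronger region lay 164821 bp after the start site (44545486 to 44546288), with folds of 7.49, 29.7, 29.4 and 6.36 and summits within 27 bp. The same site stood at percentiles 35.1, 96.1, 96.0 and 20.7 of the 4 lists. The other region lay 6173 bp after the start site, where the noncoding gene 5730488B01Rik overlaps Pax5 (44704211 to 44704798), and had folds of 12.5, 4.70, 5.56 and 11.8. Pax5 also held 2 sites listed in OE libraries 1 and 4 alone. At 44664045 to 44664645 the folds were 13.97 and 6.81 in libraries 1 and 4, and at 44639651 to 44640628 they were 6.49 and 5.45. Libraries 2 and 3, with the higher background, listed no peak there. Such sites were rare, 719 of 119237 merged regions (0.603%), whereas 45.3% came from OE libraries 2 and 3 alone.

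Pax8, the third gene of that group and a regulator of thyroid and kidney (chromosome 2, 24420551 to 24475599, minus strand), had 1, 5, 3 and 0 peaks in OE libraries 1 to 4. A site 15061 bp upstream was shared by libraries 1, 2 and 3 (folds 6.97, 8.31 and 3.97) and was missing from library 4. Pax8 therefore had no reproducible region, and its counts overlapped those of the KO libraries, which were 0. The two-sided exact permutation p was 0.267 (0.608 adjusted over all genes).

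Pax1, a gene of the sclerotome and pharyngeal pouches (chromosome 2, 147361930 to 147375049, plus strand), had 2, 17, 13 and 1 peaks in OE libraries 1 to 4 and 0 in each KO library. Its single region lay 215 bp after the start site (147365129 to 147365887), with folds of 15.0, 2.66, 3.18 and 9.99 on pileups of 29, 16, 19 and 21 fragments. The peak of library 2 did not overlap those of libraries 1 and 4 and was joined to them through the peak of library 3. Without OE library 3 Pax1 had no region. The strongest peaks of OE libraries 2 and 3 lay 64434 bp beyond the gene, with folds of 20.7 and 17.3, where libraries 1 and 4 listed none. Pax9 (chromosome 12, 56691693 to 56712824, plus strand) had 0, 9, 8 and 0 peaks in OE libraries 1 to 4, which overlapped the 0 of the KO libraries (exact permutation p = 0.467, 0.622 adjusted over all genes). The strongest, 1987 bp after the start site, had folds of 22.6 and 21.3 in libraries 2 and 3. These were at percentiles 94.4 and 93.8 of their lists, yet libraries 1 and 4 listed nothing at Pax9, where a peak needed a fold of about 4.00 and 4.09 over the commonest background to be listed.

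Pax6, a regulator of eye, forebrain and pancreas (chromosome 2, 105668896 to 105698410, plus strand), had 1, 19, 15 and 1 peaks in OE libraries 1 to 4 and no reproducible region. A site 56516 bp upstream had folds of 10.97, 10.5 and 4.54 in libraries 2, 3 and 4 and none in library 1. The single peak of library 1 lay 45379 bp from the gene with a fold of 8.48. The strongest of libraries 2 and 3 lay 52279 bp upstream (12.1 and 13.8). Distal enhancers of Pax6 are known inside introns of its neighbour Elp4, whose body overlaps that of Pax6 by 1091 bp. A reproducible region did lie inside Elp4 (105739581 to 105740530), 41572 bp beyond Pax6, with folds of 19.0, 59.7, 31.0 and 9.08. It was given to Elp4 because it lay inside that gene. Pax4, a gene of pancreatic endocrine cells (chromosome 6, 28442334 to 28449340), had 2 peaks in OE library 2, with folds of 5.17 and 4.70 at 1916 and 3983 bp from the gene, and none in any other library. Its counts therefore did not separate OE from KO libraries (exact permutation p = 1).

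**Figure D4:**
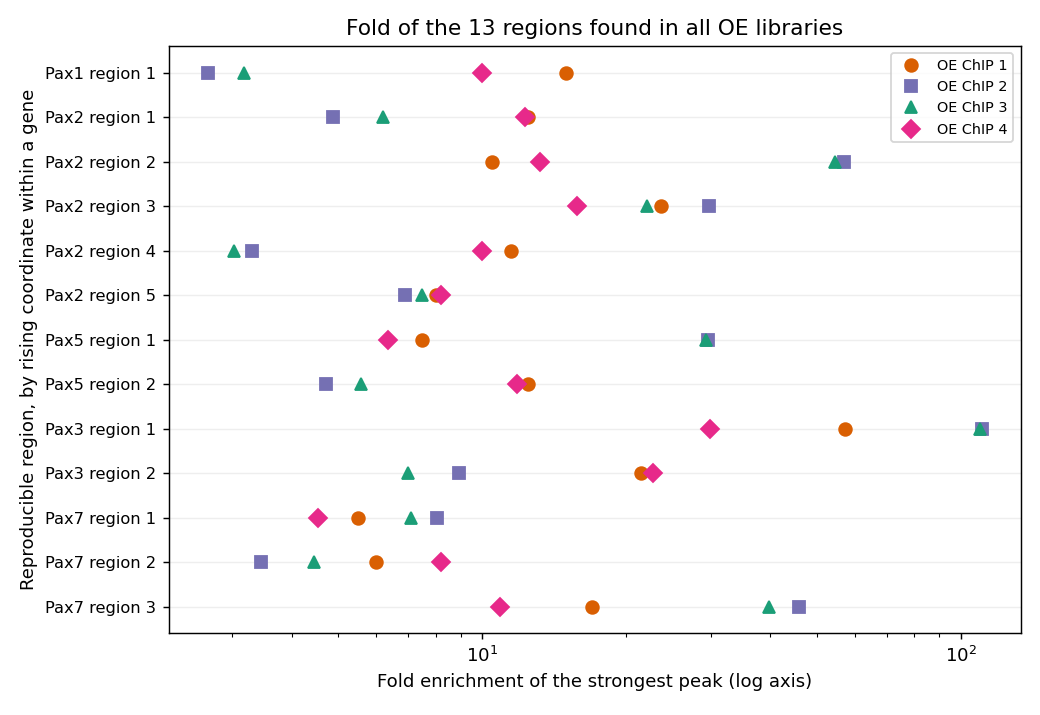
Fold enrichment (x axis, log scale) of the 13 reproducible Pax regions (y axis, numbered by rising coordinate within a gene) in OE libraries 1 to 4 (symbols). The first Pax3 region has the highest fold in every library, from 30.0 to 111, and at most regions libraries 1 and 4 sit together and apart from libraries 2 and 3.

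The 13 regions differed widely in rank. Their mean percentile of fold ran between 27.3 and 97.0 with a median of 59.1, below the median of 71.5 over all 10375 regions. The median width was 1057 bp, against 1135 bp over all regions. Of the 13 regions 8 lay inside the Pax gene and 5 outside. Of all 10375 regions 57.5% lay inside a gene, but only 9393 of them were assigned to any gene. All 13 Pax regions were assigned by definition, so these shares have unlike bases. Summits of the 4 libraries lay within 100 bp of each other in 5 regions: the stronger Pax3 and Pax5 regions, the Pax2 region 21925 bp upstream, and the Pax7 regions 25925 bp upstream and 11392 bp downstream of the start site. Of all 10375 regions 5574 met this limit of 100 bp. In 7 Pax regions the mean percentile was lower in OE libraries 1 and 4 than in OE libraries 2 and 3, and in 6 it was higher. The 2 regions within 1 kb of a start site in the RefSeq table, at Pax1 and Pax2, had mean percentiles of 61.5 and 56.1 over libraries 1 and 4. Over libraries 2 and 3 they had 4.12 and 7.75. Over all regions on chromosomes with start sites in the table, the 2794 within 1 kb of one had a median percentile of 71.7 over libraries 1 and 4. Over libraries 2 and 3 it was 64.4. For the other 7264 regions these medians were 60.7 and 94.5. These percentiles come from lists of 22308 and 14078 peaks and of 106750 and 87385 peaks on the chromosomes used, so the medians are descriptions, and the pair of Pax regions was not tested.

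**Figure D5:**
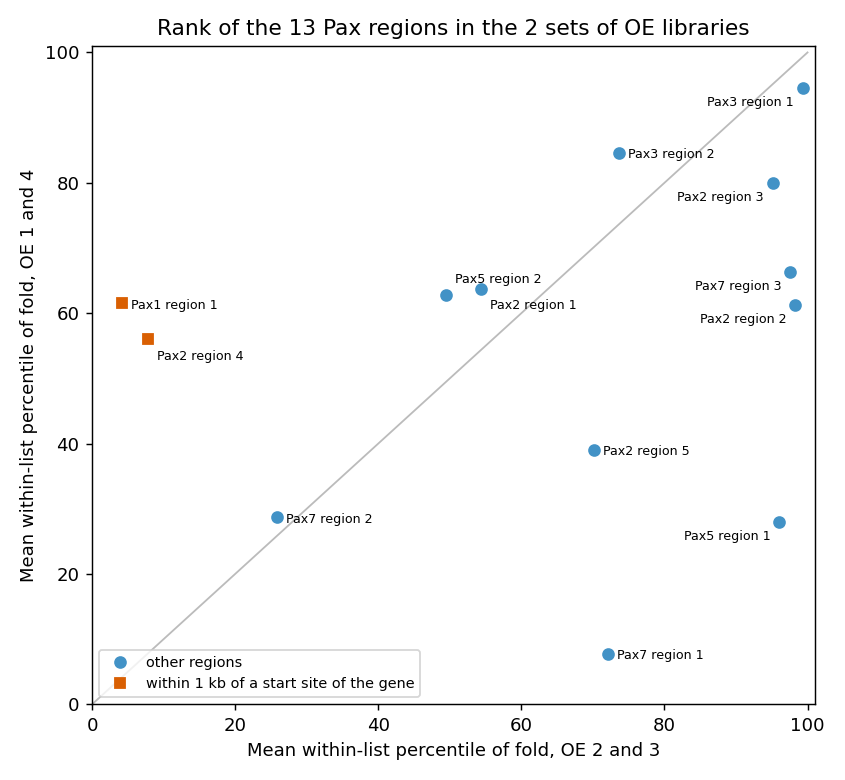
Mean within-list percentile of fold in OE libraries 1 and 4 (y axis) against that in OE libraries 2 and 3 (x axis) for the 13 reproducible Pax regions, with equality as the grey line. Squares mark the Pax1 and Pax2 regions within 1 kb of a start site, which lie far above the line, and 7 regions lie below it.

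A list of 40 genes that work with or under PAX proteins was examined in the same way. Of these 19 had a reproducible region (47.5%, beside 30.3% of all genes) and 21 had none. Their median territory was 115 kb, beside 45.8 kb for all genes. The share of genes with a region was 38.8% in the next-to-widest quintile of territories and 51.4% in the widest. The 47.5% is thus to be read against the shares for wide genes, and the 34.9% below was not split by territory. In 23 of the 40 every OE library had more peaks than every KO library, beside 34.9% of all genes, and in 0 every OE library had fewer, beside 0.00457% of all genes. Among the families of PAX partners, a region was found at 1 of 6 genes of the Sine oculis homeobox family (Six4), 2 of 4 Eya genes (Eya2 and Eya3) and 1 of 2 Dach genes (Dach2). Mitf, the melanocyte regulator that PAX3 activates, led the list with a region inside the gene (chromosome 6, 97881616 to 97882575) and folds of 29.9, 116, 68.3 and 22.7. Six4 had folds of 55.4, 18.7, 15.3 and 30.0 in its best region. The Dach2 region lay 47096 bp away with a mean fold of 24.0 ± 3.83 (SD, n = 4), and that of the EYA cofactor gene Eya2 lay inside it with 42.3 ± 25.5. Uncx and Tcf15, a homeobox and a bHLH gene of the somites, had 3 regions each, with best mean folds of 51.0 ± 39.7 and 38.1 ± 20.7. Met, the receptor gene needed by migrating muscle precursors, had folds of 52.9, 6.74, 6.67 and 43.6 in OE libraries 1 to 4. Lbx1, a homeobox gene of the same precursors, had 3 regions, the best with a mean fold of 27.5 ± 16.7.

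Over the number of peaks and the strongest fold in each of the 4 OE libraries, 8 values on the log2 scale, the genes most like Pax2 were Macrod2, Igsf21 and Sash1. Their Euclidean distances were 0.567, 0.663 and 0.671. Macrod2 had 6, 40, 28 and 6 peaks and 4 reproducible regions, Igsf21 had 7, 38, 43 and 8 peaks and 4, and Sash1 had 8, 27, 30 and 6 peaks and 5.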

How the data were processed

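Peak lists of 7 libraries were used, 1 per library, so peaks were not called on pooled samples. The submitters' processing notes name MACS2, BWA, Picard and Trimmomatic, and the builds mm10 and GRCm38.p5. No source used here gives their versions or the control used in calling. Each peak in the deposited lists has a fold over local background, which is a linear ratio, a −log10 p-value, a −log10 q-value and a score derived from the q-value, the last not used here. Folds of different lists stand side by side as a description only.

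Python 3.11.15, numpy 2.4.6, pandas 2.3.3, scipy 1.17.1 and matplotlib 3.10.9 were used. OE peaks sharing 1 bp were merged, and a region was placed at the summit of its peak with the highest within-list percentile of fold. Inside overlapping genes it counted for each. Gene positions and promoter sequences came from RefSeq, GRCm38.p6, without exons. Fragments at a summit were recovered from fold and p-value for 96.8% to 98.4% of peaks, within a relative tolerance of 0.001. The merging into regions was tested on simulated lists with planted shared sites, and the assignment to genes on simulated positions. The other procedures were not tested in this way. Named genes are all Pax genes, the 8 leading list members, the 3 genes most like the leading Pax gene, and neighbours. Single Pax sites, and Eya3, were named after their values were seen. The members and lists were chosen with earlier results of these data known. The design text speaks of biological replicate experiments without saying which culture each library came from, so p-values may in part measure technical spread.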

Additional observations from a re-analysis of the deposited data

Results flagged for a closer look

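The number of peaks at Pax4 was 2 in OE library 2 and 0 in OE libraries 1, 3 and 4, so that library 2 stood apart from the others by more than Dixon's 95% limit for 4 values. With the other values all at 0, any count above 0 passes this limit, so the flag does not measure how far library 2 stood apart. It was the only such case among 28 sets of 4 OE values examined. The usual chance rate of about 1 in 20 does not hold for counts tied at 0.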

How the results depend on the processing

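The counts of regions depended on the libraries and limits used. The main setting gave 13 of 10375 regions. With OE libraries 2 and 3 alone, 8 Pax genes had a region, beside 74.3% of all genes, and they held 112 of 72156 regions. With at least 2 of 4 libraries 8 Pax genes had a region, beside 74.9% of all genes, and they held 115 of 73780 regions. With at least 3 of 4 libraries 7 Pax genes had a region, beside 43.1% of all genes, and they held 22 of 18677 regions. Fewer Pax regions were found at −log10 q of at least 10 (8 of 6455) and with summits within 100 bp (5 of 5574). Each of these limits left 4 Pax genes with a region, beside 20.6% and 17.1% of all genes. Inside gene bodies, or within 10 kb, 8 regions were left at 5 Pax genes, beside 21.3% and 26.9% of all genes. With equal list lengths 4 of 5182 regions lay at 3 Pax genes, beside 15.7% of all genes. Leaving out each library gave 4 to 6 genes, beside 30.3% to 40.9% of all genes, and 12 to 19 regions. When a region counted for every gene within 100 kb, 7 Pax genes had a region, beside 68.9% of all genes, and 18 regions were found. Pax4 and Pax6 then had 1 region each, so their lack of one depended on the nearest-gene rule. Pax2, Pax3 and Pax7 had a region in each of these settings. Without OE library 1 Pax6 gained a region, without OE library 3 Pax1 lost its own, and without OE library 4 Pax8 gained 1 and Pax7 had 5. The mean strongest fold inside the gene body was 10.3 at Pax1, 11.7 at Pax2 and 11.8 at Pax7, where with flanks it was 15.7, 37.7 and 28.4. In the strongest reproducible region of Pax1 it was 7.70. With the E-box CATATG, or CAGATG in either orientation, 0 Pax promoter windows had a match. The cause was not tested. The KO libraries listed 0 peaks at each Pax gene in each alternative, so no difference in peak number could be negative. The direction was thus fixed beforehand and is no check of the result. At Pax4, counting inside gene bodies or leaving out OE library 2 left 0 peaks in OE and 0 in KO libraries, and no difference. With the replicate block, which pairs the libraries numbered 2 and 3, the difference on the log2 scale was 3.99 at Pax1, 5.11 at Pax2, 3.58 at Pax3, 0.792 at Pax4, 4.45 at Pax5, 4.16 at Pax6, 5.21 at Pax7, 2.29 at Pax8 and 3.25 at Pax9. The exact sign-flip test cannot go below p = 0.5 with 2 pairs. Deviations of same-numbered libraries correlated at 0.0109 and -0.00763 over genes. Only 0.210% and 0.0959% of all genes had a peak in KO libraries 2 and 3, so this correlation cannot show whether the numbers pair the libraries. The main test did not take the numbers as pairs. Read totals were not at hand. At the commonest background the lowest fold that could be listed was 4.00 and 4.09 in OE libraries 1 and 4 and 2.51 and 2.54 in OE libraries 2 and 3.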
